A study of Mus musculus with 106 samples.

Results

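The liver transcriptomes of male and female mice of 8 inbred strains were compared on a high-fat diet (HFD), gene by gene and over the autosomes only. Libraries were taken by their titles, which give strain, sex and diet, so that 48 libraries entered the comparison and the other 58 libraries of the series did not, and 13896 of the 14330 genes in the count table lay on an autosome. Each library was made from the liver RNA of 1 mouse, and each strain had 3 males and 3 females. The strains were 129S1/SvImJ, A/J, C57BL/6J, DBA/2J and NOD/ShiLtJ, which are classical laboratory strains, and CAST/EiJ, PWK/PhJ and WSB/EiJ, which were derived from wild mice. Every mouse was 21 weeks old and had been on its diet since 8 weeks of age. Fat made up 60% of the calories of the HFD and 6% of those of the control diet (CD), which was fed to the matched mice used in the last comparison. Carbohydrate made up 20% and 74%, and protein 20% in both. A ninth strain, NZO/HlLtJ, is left out of all comparisons because it had 1 male HFD library. An inbred strain is a single genotype, so a difference between strains was measured in 3 mice of each sex, and on HFD the males and females of a strain carried separate ranges of animal numbers. Whether they were raised as 1 cohort is not given in the sources used here.

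In mice the sex of the liver is set largely by the pattern of pituitary growth hormone. Males secrete it in pulses separated by long gaps, which activates the transcription factor STAT5B in bursts, whereas females secrete it almost continuously. BCL6 is a repressor of female-biased genes in male liver, and CUX2 is a female-expressed repressor of male-biased genes. The best known targets are cytochrome P450 genes (Cyp) of steroid, fatty acid and drug oxidation, sulfotransferases (Sult), which add sulfate to steroids and bile acids, and the major urinary proteins (Mup), pheromone carriers that males excrete in large amounts.

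STAT5 dimers bind the 9-letter palindrome TTCNNNGAA, where N is any base. The 250 bases upstream of each RefSeq transcript start (build GRCm38.p6, the C57BL/6J reference) were searched for it, which covers both strands because the motif is its own reverse complement. It was present in 7.02% of 32851 promoters. Of the 20 genes with the largest average sex difference, 10 in each direction among genes with the same direction in all 8 strains and a mean of at least 1 CPM (the per-million count of a library) in the higher sex, 13 had a promoter in the table and 2 of those held the motif, the female-higher genes Slc22a26 and A1bg. Slc22a26 encodes an organic anion transporter of the liver, and its upstream sequence (chr19:7802668-7802917, minus strand) is shown with the match in capitals, 141 bases before the start.
Slc22a26: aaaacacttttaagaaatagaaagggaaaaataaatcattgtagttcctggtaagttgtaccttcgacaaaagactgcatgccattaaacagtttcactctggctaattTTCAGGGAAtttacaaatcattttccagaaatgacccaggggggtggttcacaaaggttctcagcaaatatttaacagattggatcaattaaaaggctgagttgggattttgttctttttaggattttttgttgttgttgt
Bcl6 was one of the regulators examined, and 1 of its 2 upstream windows (chr16:23981284-23981533, minus strand) held 3 matches, in capitals, starting 168, 122 and 88 bases before the start, and the other window held 1, 118 bases before it. Among other regulators described here, 1 of 2 windows of Esr1 and 1 of 3 windows of Prlr held 1 match each, and those of Cux2, Trim24, Stat5b, Onecut1, Ghr, Egfr, Igf1 and Cish held none.
Bcl6: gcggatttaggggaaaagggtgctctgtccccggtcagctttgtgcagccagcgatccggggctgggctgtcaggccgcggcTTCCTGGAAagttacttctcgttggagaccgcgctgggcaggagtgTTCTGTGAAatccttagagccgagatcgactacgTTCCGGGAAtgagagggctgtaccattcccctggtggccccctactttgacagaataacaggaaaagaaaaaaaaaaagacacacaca
Sult3a1 is shown because its sex difference passed the threshold in 7 strains and was near 0 in the other one, as described further on. The 249 bases upstream of its first annotated exon (chr10:33857472-33857720, plus strand) held 1 match, in capitals, and the neighbouring gene Sult3a2, which shared 27.2% of 250 aligned upstream bases with it, held none.
Sult3a1: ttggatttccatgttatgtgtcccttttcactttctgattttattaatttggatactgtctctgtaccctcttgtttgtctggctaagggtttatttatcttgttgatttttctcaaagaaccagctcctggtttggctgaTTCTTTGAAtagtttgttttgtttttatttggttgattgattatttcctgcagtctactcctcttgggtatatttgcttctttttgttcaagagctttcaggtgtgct
Cyp2b9 and Cyp2b13 are neighbouring genes for steroid-oxidising P450 enzymes, and they are shown because 248 of their 250 upstream bases were identical while their levels parted in some strains. Capitals mark the 2 bases that differ between Cyp2b9 (chr7:26173159-26173408, plus strand) and Cyp2b13 (chr7:26061245-26061494, plus strand).
Cyp2b9: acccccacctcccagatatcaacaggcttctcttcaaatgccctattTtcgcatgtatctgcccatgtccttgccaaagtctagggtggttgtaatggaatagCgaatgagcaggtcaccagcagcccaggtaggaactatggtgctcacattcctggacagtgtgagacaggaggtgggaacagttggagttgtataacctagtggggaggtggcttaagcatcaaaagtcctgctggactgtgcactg
Cyp2b13: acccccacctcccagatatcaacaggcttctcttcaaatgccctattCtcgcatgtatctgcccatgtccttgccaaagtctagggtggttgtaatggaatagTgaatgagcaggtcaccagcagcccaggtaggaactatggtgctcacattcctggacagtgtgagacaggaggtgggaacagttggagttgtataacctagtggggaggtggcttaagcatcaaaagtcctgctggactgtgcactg
A match is a stretch of letters in the reference sequence, and binding of a factor was not measured in these libraries.

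The 48 libraries held 35534924 to 73577221 counts assigned to genes (median 49265211). Hepatocyte markers summed to between 89568 and 224220 CPM, on the library sizes of the TMM scaling method. In 7 of the 8 strains the share of reads that were not uniquely aligned was higher in all 3 males than in all 3 females, with medians of 22.8% over the males and 16.2% over the females, and in WSB/EiJ the sexes overlapped. The part of this share in the results for gene families of near copies was not tested. The sex-linked genes matched the labels in all 48 HFD libraries. The library labelled 129S1/SvImJ female CD 1 did not match: Xist, the RNA of the inactive X chromosome, was at 0.891 CPM there against 202 to 387 CPM in HFD females, and the Y-linked Ddx3y was at 58.4 CPM against at most 0.0925 CPM. The library WSB/EiJ female HFD 2 was female by these genes but lay 0.42 log2 units from the other libraries of its group in the median gene, against 0.108 to 0.283 for the other 47, and 24.6% of its reads were not uniquely aligned. Values rest on all libraries unless a library is named as left out.

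Averaged over the 8 strains with equal weight, 5325 autosomal genes differed between the sexes on HFD (38.3% of 13896, edgeR quasi-likelihood test, Benjamini-Hochberg adjusted p under 0.05). Of these, 2437 were higher in males (17.5%) and 2888 were higher in females (20.8%). Most differences were small: the median absolute log2 fold change of the genes past the threshold was 0.298, and 415 genes reached 1 log2 unit, 179 higher in males and 236 higher in females. At 3 log2 units or more there were 40 genes in each direction, and at 5 or more there were 10 higher in males and 23 higher in females. Here and throughout, a log2 fold change is that of males over females, so that positive values are higher in males. Without WSB/EiJ female HFD 2 the count was 5757, with 2894 genes higher in males and 2863 higher in females, so the excess of female-higher genes was not kept. With the 8 strains as the units in place of the 48 libraries the count was 1987, 818 of them higher in males. The share of genes past the threshold was between 34.5% and 43.6% on each of the 19 autosomes.

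Among the largest male-higher differences were those of genes for enzymes of fatty acid and steroid metabolism and for urinary proteins. Cyp4a12a (chr4:115299046-115332815), which hydroxylates arachidonic acid and other fatty acids, was at 72.4 to 702 CPM (median 359) in males and at 0.0774 to 14.6 CPM (median 0.572) in females. Every male was above every female of the 48, and the average log2 fold change was 8.47 ± 0.21 (SE), adjusted p = 7.88e-29. Its neighbour Cyp4a12b had an average log2 fold change of 7.24 ± 0.29 (SE), but 48.9% of the 50-base windows of the Cyp4a12a transcript also occur in Cyp4a12b, so reads of the pair can be assigned to either. Elovl3 (chr19:46131897-46135694), which lengthens saturated very long chain fatty acids, was at 39.4 to 1433 CPM (median 289) in males and at 0.495 to 16 CPM (median 6.33) in females. The ranges over all strains did not overlap, and the average was 5.40 ± 0.17 (SE). Pitx3, at 5.02 ± 0.26 (SE), overlaps Elovl3 on the opposite strand, and reads from the 2 genes cannot be told apart without knowing whether strand was used in counting.

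Hsd3b5 (chr3:98618634-98630252), a 3-ketosteroid reductase of male liver, was at 0.896 to 366 CPM (median 96.6) in males and at 0.0241 to 31.1 CPM (median 0.479) in females, with an average of 6.16 ± 0.33 (SE). The ranges over all strains overlapped, since a C57BL/6J male was at 0.896 CPM and the NOD/ShiLtJ females were at 23.8, 11.4 and 31.1 CPM. Cyp7b1 (chr3:18071950-18243338), the oxysterol and steroid 7-alpha-hydroxylase of the alternative bile acid route, was at 62.2 to 917 CPM (median 548) in males and at 9.99 to 719 CPM (median 25.3) in females, with an average of 2.99 ± 0.10 (SE). Cyp2d9, a steroid 16-alpha-hydroxylase, averaged 4.46 ± 0.15 (SE) and passed the threshold in all 8 strains. Slco1a1, an organic anion transporter, was at 62.3 to 1046 CPM (median 471) in males and at 3.13 to 275 CPM (median 55.7) in females, and averaged 3.13 ± 0.22 (SE). In each of the 8 strains all 3 males were above all 3 females for Slco1a1. Nat8f5, an acetyltransferase-like gene, was at 0.0208 to 6.87 CPM (median 1.13) in males and at 0 to 0.76 CPM (median 0) in females. All 3 C57BL/6J females had 0 counts, so males of that strain were at least 114-fold higher, taking 3 counts per library as the floor.

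The Mup genes lie together on chromosome 4 (chr4:59964294-62150863). Of the 20 genes counted there, 19 were higher in males on average and 0 were higher in females, with a median log2 fold change of 3.52, or 3.23 when strains with a sex at 0 counts were set to the floor of 3 counts. Over all autosomal genes 17.5% were higher in males and 20.8% in females, and the median was -0.0059. The sex difference of 18 of the 20 differed between strains, against 20.4% of all autosomal genes. Mup21 (chr4:62147932-62150863) was at 19.9 to 1873 CPM (median 352) in males and at 0.587 to 14.1 CPM (median 2.17) in females, and averaged 7.21 ± 0.17 (SE). Mup7 averaged 7.16 ± 0.25 (SE), Mup20 5.69 ± 0.22 (SE) and Mup12 5.50 ± 0.19 (SE). Mup20 encodes darcin, a male pheromone. Its level in CAST/EiJ was 0.604, 6.62 and 0.973 CPM in males and 0.574, 0.839 and 0.413 CPM in females. The groups overlapped and 1 male was high, and the strain's call (adjusted p = 0.0194) was lost without that male (log2 fold change 0.36, adjusted p = 0.802) and without CAST/EiJ female HFD 3 (0.104). In C57BL/6J it was 2227, 3616 and 2843 CPM in males and 34.3, 38.4 and 45.3 CPM in females. The Mup genes are near copies: 90.2% of the 50-base windows of Mup7, 85.4% of Mup12, 50.5% of Mup20 and 19.3% of Mup21 occur in another gene, so the values of single members are uncertain.

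The largest female-higher differences were in P450 and sulfotransferase genes that lie in tandem arrays. Of 10 Cyp3a genes on chromosome 5, drug- and steroid-oxidising enzymes, 8 were higher in females and 0 in males, against 20.8% and 17.5% of all autosomal genes. Cyp3a41a (chr5:145694049-145720136) was at 1.66 to 776 CPM (median 214) in females and at 0.0415 to 0.685 CPM (median 0.149) in males. Every female was above every male of the 48, the average was -9.83 ± 0.27 (SE), adjusted p = 4.08e-27, and the strains did not differ past the threshold (F = 1.66, adjusted p = 0.275). Its near copy Cyp3a41b holds 93.7% of the Cyp3a41a windows, and 249 of 250 upstream bases are the same in both. Cyp3a44 averaged -8.61 ± 0.26 (SE). Cyp3a16, at -8.77 ± 0.33 (SE), had 1 male group at or under 3 counts in each library, so that the fitted value depends on the prior count.

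Of 8 Sult2a genes on chromosome 7, which sulfate bile acids and hydroxysteroids, 6 were higher in females and 1, Sult2a8 at 1.28 ± 0.12 (SE), was higher in males, against the same shares of all autosomal genes. Sult2a5 was at 0.911 to 30.9 CPM (median 10.0) in females. Its 24 males were between 0 and 0.101 CPM, and those of C57BL/6J, DBA/2J and NOD/ShiLtJ had 0 counts in all 3 libraries. At the floor of 3 counts per library, females were at least 102-fold higher in C57BL/6J, at least 225-fold in DBA/2J and at least 89.3-fold in NOD/ShiLtJ. The same bound was at least 169-fold for Sult2a3 in DBA/2J, at least 119-fold for Sult2a4 in CAST/EiJ, and at least 33.6-fold in CAST/EiJ and 44.8-fold in WSB/EiJ for Sult2a6. Sult2a1 (chr7:13796246-13837409) was at 7.1 to 469 CPM (median 144) in females and at 0.0487 to 195 CPM (median 0.198) in males.

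Outside these arrays, A1bg (chr15:60896859-60923012), which encodes a plasma glycoprotein, was at 0.532 to 746 CPM (median 24.3) in females and at 0 to 0.806 CPM (median 0.104) in males. Slc22a26, whose upstream sequence is printed above, was at 36.4 to 241 CPM (median 147) in females and at 0 to 35 CPM (median 0.548) in males, and averaged -7.41 ± 0.21 (SE). Both passed the threshold in all 8 strains. Cyp2c69, of a family of fatty acid and drug hydroxylases, averaged -7.32 ± 0.32 (SE), although 54.8% of its windows occur in other genes. Hao2, a peroxisomal hydroxy acid oxidase, averaged -5.56 ± 0.41 (SE) and was near 0 in both sexes of CAST/EiJ, with males at 0.128, 0.17 and 0.199 CPM and females at 0.234, 0.258 and 0.109 CPM.

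**Figure D1:**
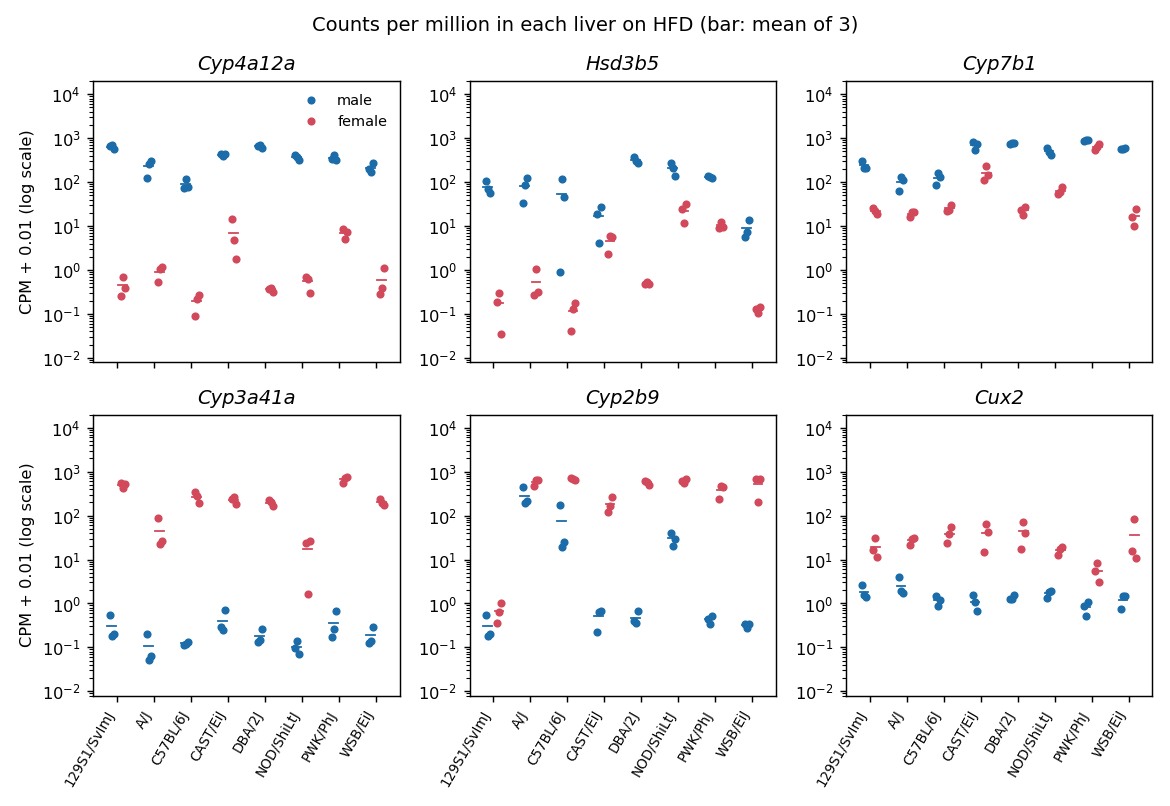
Each point is 1 library, with males and females side by side for each of the 8 strains, and the vertical axis is CPM plus 0.01 on a log scale for Cyp4a12a, Hsd3b5, Cyp7b1, Cyp3a41a, Cyp2b9 and Cux2. The sexes are apart in all 8 strains for Cyp4a12a, Cyp3a41a and Cux2, whereas Hsd3b5 in CAST/EiJ, Cyp7b1 in PWK/PhJ and Cyp2b9 in 129S1/SvImJ and A/J come close together.

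A panel of 26 genes known from work on the dimorphic liver was described. On average 10 were higher in males, 13 were higher in females and 3 (Stat5b, Igf1 and Cish) did not pass the threshold, so that 23 of 26 passed against 38.3% of all autosomal genes. In the single strains, 8 of the 26 passed in all 8 strains, 7 passed in 7 strains and 4 passed in none, and the share of all autosomal genes ran from 2.66% in A/J to 20.5% in WSB/EiJ. The panel was drawn up from genes known to be dimorphic. The sex difference of 17 of the 26 differed between strains, against 20.4% of all autosomal genes. Among the 415 autosomal genes with an average of at least 1 log2 unit it differed for 71.3%.

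**Figure D2:**
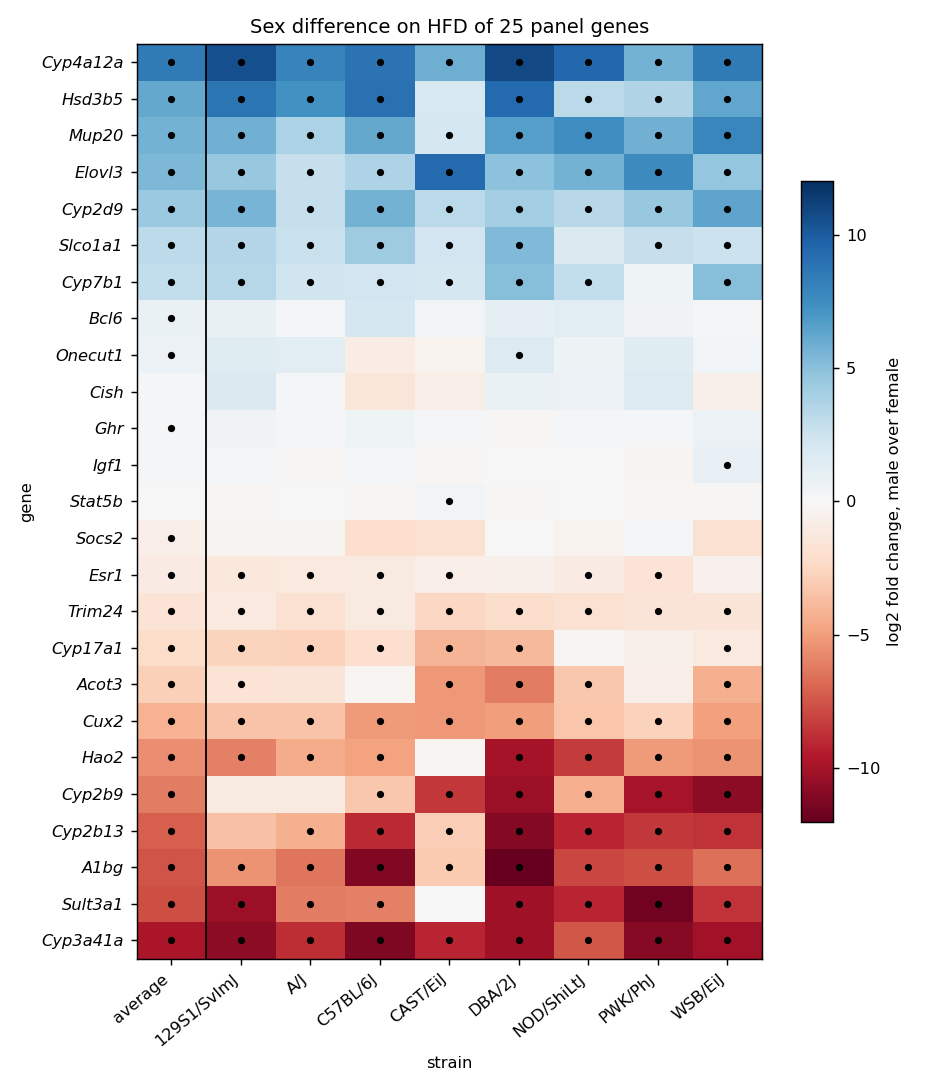
Log2 fold change of males over females on HFD for 25 of the 26 panel genes (rows), averaged and in each of the 8 strains (columns), with blue for higher in males, red for higher in females and a dot where the adjusted p was under 0.05. Rows such as Cyp4a12a, Cyp3a41a, Cux2 and Trim24 carry a dot in every column, and the rows of Bcl6, Ghr, Socs2 and Cish carry none in the strain columns.

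Among the regulators, Cux2 (chr5:121856366-122050102), the female-expressed repressor, was at 3.1 to 82.5 CPM (median 20.5) in females and at 0.505 to 4.05 CPM (median 1.41) in males. Within every strain the groups were apart, the average was -4.14 ± 0.22 (SE), and the strains did not differ past the threshold (F = 2.79, adjusted p = 0.0772). Trim24, a co-regulator that restrains retinoic acid and lipid programmes in liver, was higher in females in all 8 strains, with an average of -1.69 ± 0.090 (SE). Tox, a nuclear HMG-box protein, averaged -1.79 and passed in 7 strains. Esr1, the oestrogen receptor alpha, averaged -0.99 ± 0.090 (SE) and passed in 6 strains; it missed the threshold in DBA/2J and WSB/EiJ, at -0.59 and -0.50, where all females were still above all males. Pparg, the adipogenic nuclear receptor, averaged -1.16 and Srebf1, the regulator of lipogenesis, -0.50, both higher in females.

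Bcl6 (chr16:23965052-23988852), the male repressor whose upstream window held 3 motif matches, was at 6.51 to 110.3 CPM (median 24.3) in males and at 6.45 to 71.7 CPM (median 14.7) in females. These ranges overlapped widely. Values varied between mice of a group: the NOD/ShiLtJ males were at 8.36, 94.7 and 9.41 CPM against females at 15.2, 20.5 and 12 CPM. The average of 0.79 ± 0.25 (SE) passed the threshold (adjusted p = 0.0121), no single strain did, and the call was lost with limma (adjusted p = 0.099), with strains as units (0.166), without C57BL/6J (0.096) and without NOD/ShiLtJ male HFD 2 (0.052). Onecut1, a hepatocyte factor also called HNF6, averaged 0.69 ± 0.21 (SE) and passed in DBA/2J alone among the strains, and with strains as units its adjusted p was 0.152. Of the 32 transcription factors and nuclear receptors on the list, 7 were higher in males, 7 were higher in females and 18 did not pass, with a median log2 fold change of -0.038. The share past the threshold was 43.8%, against 38.3% of all autosomal genes, and without WSB/EiJ female HFD 2 the counts were 8 and 8.

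Of 21 genes of growth hormone signalling, 4 were higher in males and 6 in females (47.6% past the threshold, against 38.3% of all autosomal genes), or 4 and 7 without WSB/EiJ female HFD 2. Prlr, the prolactin receptor, averaged -1.76 ± 0.11 (SE) and passed in 7 strains. Egfr, the epidermal growth factor receptor, averaged 1.43 ± 0.14 (SE) and passed in 4 strains. In WSB/EiJ the males were at 427, 395 and 639.8 CPM and the females at 123, 422 and 131 CPM, which overlapped through the library that stands apart. Igfbp1, a binding protein of insulin-like growth factors, averaged -1.16. Socs2, a feedback inhibitor of the hormone's receptor, averaged -0.83 ± 0.26 (SE), and its adjusted p rose to 0.077 without C57BL/6J and to 0.099 with strains as units. Ghr, the receptor itself, averaged 0.26 ± 0.096 (SE), and its adjusted p was 0.091 without 129S1/SvImJ, 0.113 without C57BL/6J, 0.051 without CAST/EiJ male HFD 3, 0.058 without WSB/EiJ male HFD 3 and 0.0757 with strains as units. Stat5b, at -0.069 ± 0.039 (SE), and Igf1, at 0.10 ± 0.066 (SE), did not pass on average. Without CAST/EiJ both passed, Stat5b at -0.12 (adjusted p = 0.0267) and Igf1 at 0.15 (adjusted p = 0.0448). Igf1 passed in WSB/EiJ, where males were at 489.8, 420.4 and 634 CPM and females at 238, 247 and 287 CPM, without overlap. Igf1 overlaps an antisense gene.

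Strain by strain, the number of autosomal genes that differed between the sexes ran from 369 to 2842. It was 369 in A/J (2.66% of genes), 765 in C57BL/6J (5.51%), 1238 in 129S1/SvImJ (8.91%) and 1282 in NOD/ShiLtJ (9.23%). It was 1709 in CAST/EiJ (12.3%), 1720 in PWK/PhJ (12.4%), 2118 in DBA/2J (15.2%) and 2842 in WSB/EiJ (20.5%). These counts share 1 estimate of the spread over all 48 libraries. When each strain was fitted alone WSB/EiJ had 170, CAST/EiJ 848, 129S1/SvImJ 825 and C57BL/6J 1418, so the order of the strains differed between these fits. In WSB/EiJ the typical within-group standard deviation of the females was 0.292 log2 units, against 0.125 to 0.194 in the other 7 female groups, and without WSB/EiJ female HFD 2 the shared fit called 2139 genes there. The same fit called 2777 in DBA/2J, 2186 in CAST/EiJ, 2057 in PWK/PhJ, 1635 in NOD/ShiLtJ, 1587 in 129S1/SvImJ, 1088 in C57BL/6J and 513 in A/J, so that DBA/2J had the most and WSB/EiJ was the third. The share of the called genes that were higher in males was 56.4% in CAST/EiJ and between 35.3% and 48.8% in the other 7 strains, and without WSB/EiJ female HFD 2 it was 55.6% in WSB/EiJ and 51.1% in DBA/2J. With the libraries of all 9 strains and both diets used for scaling and spread it was 54.6% in C57BL/6J against 43.9% as reported, and 53.5% in DBA/2J. In WSB/EiJ it was 53.9% with limma and 54.7% when the strain was fitted alone, against 48.8%.

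**Figure D3:**
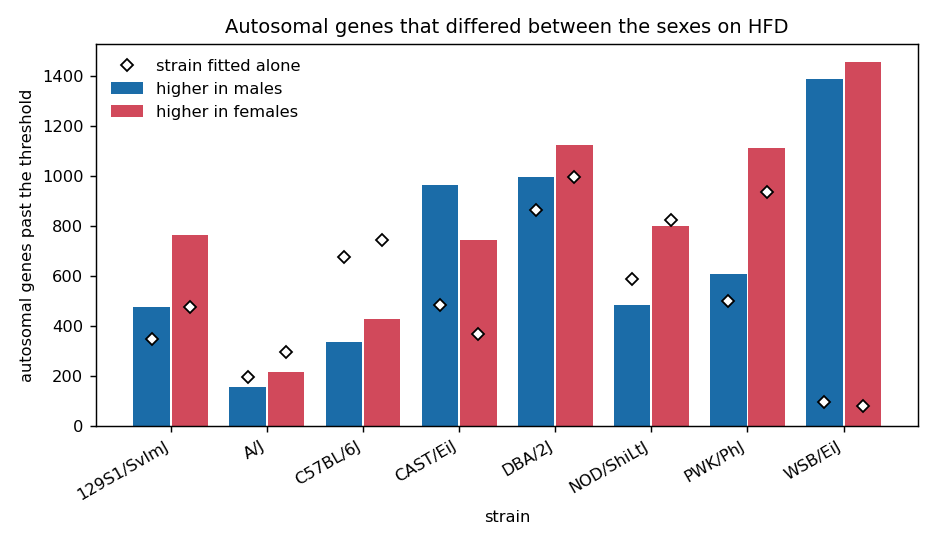
Bars give the number of autosomal genes higher in males and higher in females on HFD in each of the 8 strains at an adjusted p under 0.05, from the fit over all 48 libraries, and diamonds give the same counts when the strain was fitted alone. WSB/EiJ has 2842 genes in the shared fit and 170 alone, and A/J has the shortest bars, with 153 and 216 genes.

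Of the 13896 genes, 6621 passed in at least 1 strain and 3904 of these in exactly 1. In all 8 strains 52 genes passed, 30 higher in males and 22 higher in females. Without WSB/EiJ female HFD 2 the numbers were 7249 in at least 1 strain, 3923 in exactly 1 and 65 in all 8, 36 higher in males and 29 higher in females. The male-higher ones included 8 Mup genes (Mup20 among them, with the overlap in CAST/EiJ given above), Cyp4a12a, Cyp4a12b, Cyp2d9, Elovl3, the complement components C6 and C8b, the glutathione transferase Gstp1, the multidrug transporter Abcg2, the lysosomal enzyme Arsa and Nox4, an enzyme that makes hydrogen peroxide. The female-higher ones included Cyp3a41a, Cyp3a44, Cyp2c69, Cyp2a4, Slc22a26, Slc22a27, A1bg, Cux2, Trim24 and Nt5e, which makes adenosine outside the cell. For genes called with 1 log2 unit or more in the fit of the other 7 strains, the strain left out had the same direction for 80.7% in CAST/EiJ, 86.1% in PWK/PhJ, 87.6% in A/J, 88.8% in 129S1/SvImJ, 90.0% in WSB/EiJ, 91.2% in C57BL/6J, 91.4% in NOD/ShiLtJ and 92.3% in DBA/2J. Over all genes called in the fit of the other 7 strains, whatever their size, the share ran from 68.5% in A/J to 84.4% in NOD/ShiLtJ. Of the 415 genes with an average of 1 log2 unit or more, 256 had the same direction of the mean in all 8 strains.

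The size of the sex difference itself differed between strains for 2839 autosomal genes (20.4%, test of 7 strain terms), and without WSB/EiJ female HFD 2 for 3507. Among the 415 genes with an average of at least 1 log2 unit, 296 (71.3%) were in that set, and without that library 313 of 416 (75.2%). The test was fitted on the same 48 libraries as the average. The 8 genes with the largest F among those with a mean of at least 1 CPM were Capn8, Cav1, Sult3a2, Cyp2f2, Sult3a1, Mup2, Kcnk1 and C6.

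Capn8 (chr1:182565007-182632352), a calpain protease, had F = 56 and adjusted p = 1.7e-13. In WSB/EiJ the males were at 44, 41.3 and 26.6 CPM and the females at 0.456, 0.37 and 0.385 CPM, a log2 fold change of 6.53 ± 0.32 (SE). In CAST/EiJ the males were at 1.72, 1.49 and 1.48 CPM and the females at 1.53, 1.4 and 2.02 CPM. The groups overlapped in CAST/EiJ, at -0.064, and were apart in the other 7 strains. Cav1 (chr6:17306335-17341452), the main coat protein of caveolae, was high in males of PWK/PhJ, at 173, 138 and 186 CPM against 5.71, 9.44 and 8.92 CPM in females. It was 4.35 ± 0.24 (SE) there, 3.08 in WSB/EiJ and 1.84 in DBA/2J, while the groups overlapped in 129S1/SvImJ, A/J and CAST/EiJ. Kcnk1, a potassium channel, was at 9.29, 28.3 and 27.7 CPM in DBA/2J males and 0.126, 0.166 and 0.147 CPM in females. It passed in 4 strains, at 4.93 in CAST/EiJ, 7.17 in DBA/2J, 6.67 in PWK/PhJ and 5.85 in WSB/EiJ, and was at or below 0.464 CPM in every mouse of the other 4.

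C6, a component of the membrane attack complex of complement, was higher in males in all 8 strains, with its widest gap in CAST/EiJ. Males of that strain were at 2170.3, 2112 and 1797 CPM and females at 33.3, 30.9 and 31.2 CPM, a log2 fold change of 6.00 ± 0.31 (SE). In PWK/PhJ the females were the highest of any strain, at 168, 141 and 138 CPM, and the log2 fold change was 1.47 ± 0.25 (SE). Cyp2f2, a P450 that activates naphthalene, was set apart by WSB/EiJ females, at 52.3, 47.4 and 57.2 CPM against males at 804, 847 and 1292 CPM. Its log2 fold change was 4.24 ± 0.20 (SE) there and between 0.50 and 2.39 in the other 7 strains. Mup2 ran from 0.95 ± 0.30 (SE) in C57BL/6J to 6.88 ± 0.39 (SE) in WSB/EiJ, but every one of its 878 windows also occurs in another gene.

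The sulfotransferases Sult3a1 and Sult3a2 were high in males of CAST/EiJ, where Sult3a1 did not pass the threshold and Sult3a2 had its smallest difference. For Sult3a1 (chr10:33857721-33879532) CAST/EiJ males were at 2359, 1910.0 and 2189 CPM and females at 2281, 2583 and 1545 CPM. The groups overlapped, with a log2 fold change of 0.023 ± 0.42 (SE). In the other 7 strains all males were below all females, and the largest difference was -11.54 ± 0.68 (SE) in PWK/PhJ, where males were at 0.302, 0.463 and 0.363 CPM and females at 827, 1316 and 1191 CPM. For Sult3a2 CAST/EiJ males were at 395, 332 and 429 CPM and females at 811, 1168 and 728 CPM, which gave -1.21 ± 0.36 (SE), adjusted p = 0.0199, without overlap. Sult3a1 overlaps a gene on the opposite strand.

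**Figure D4:**
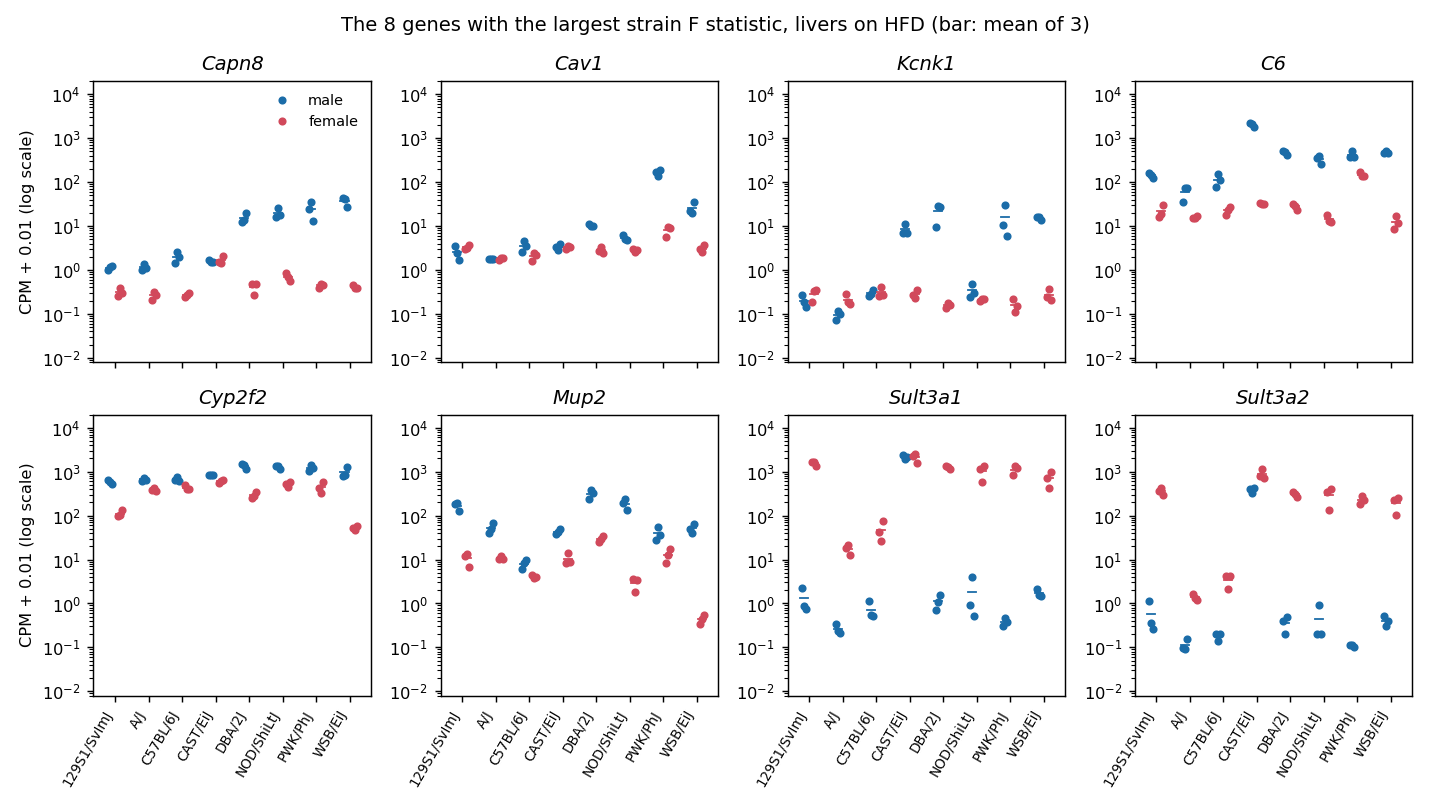
Each point is 1 library, by strain and sex, and the vertical axis is CPM plus 0.01 on a log scale for the 8 genes whose sex difference varied most between strains. Sult3a1 and Sult3a2 are high in both sexes of CAST/EiJ, Cav1 is high in males of PWK/PhJ, and Kcnk1 is raised in males of 4 strains.

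Several panel genes that were dimorphic on average missed the threshold in 1 or 2 strains. Hsd3b5 in CAST/EiJ was at 18.9, 4.09 and 26.8 CPM in males and 2.28, 5.85 and 5.47 CPM in females, with 1.89 ± 0.72 (SE) and adjusted p = 0.0812. Cyp7b1 in PWK/PhJ was at 848, 910.2 and 917 CPM in males and 528, 621 and 719 CPM in females, with 0.50 ± 0.27 (SE) and adjusted p = 0.267. The groups overlapped for Hsd3b5 in CAST/EiJ, where males were lower than in most strains, and did not overlap for Cyp7b1 in PWK/PhJ, where females were the highest of any strain. Sult2a1, which is not in the panel, was at 195, 99.7 and 69.9 CPM in PWK/PhJ males and 408, 246 and 469 CPM in PWK/PhJ females. It did not pass there (adjusted p = 0.0852). Cyp17a1, the steroid 17-alpha-hydroxylase, overlapped between the sexes in NOD/ShiLtJ, at 4.94, 4.11 and 14.9 CPM in males and 12.8, 4.44 and 9.29 CPM in females. It also overlapped in PWK/PhJ, at 17.8, 20.4 and 13.1 and 14.4, 32.5 and 30.3 CPM. In CAST/EiJ it was -4.12 ± 0.48 (SE), with females at 731, 821 and 631 CPM.

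Cyp2b9 and Cyp2b13, whose upstream sequences differ at 2 bases in the C57BL/6J reference, parted in A/J and in CAST/EiJ. In A/J, Cyp2b9 was at 437, 193 and 213 CPM in males and 477, 636 and 649.8 CPM in females, with -1.08 ± 0.49 (SE) and adjusted p = 0.302. Cyp2b13 in the same mice was at 30.7, 6.42 and 9.03 CPM in males and 204, 336 and 359.7 CPM in females, with -4.31 ± 0.54 (SE) and adjusted p = 7.9e-07. For both genes the 3 A/J males were above all males of the other 7 strains and below all A/J females, and the difference between the genes was not tested. In CAST/EiJ females Cyp2b9 was at 122, 163 and 264 CPM and Cyp2b13 at 0.829, 1.1 and 1.8 CPM. In 129S1/SvImJ every mouse was below 1 CPM for both genes, and neither passed. The A/J, CAST/EiJ and 129S1/SvImJ sequences of these promoters were not examined.

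In single strains the largest differences fell on a few further genes. Moxd1, a monooxygenase-like protein, was at 519, 401.1 and 481 CPM in CAST/EiJ males and 0.999, 1.59 and 0.847 CPM in females. In DBA/2J it was at 333, 428 and 358 CPM in males and 0.984, 0.348 and 0.66 CPM in females. The log2 fold changes were 8.68 ± 0.79 (SE) and 9.14 ± 0.82 (SE), and in 129S1/SvImJ, A/J, C57BL/6J and NOD/ShiLtJ the sexes overlapped. Obp2a, an odorant-binding lipocalin, was at 263, 346 and 404 CPM in DBA/2J males and 0.712, 22.2 and 5.12 CPM in females. In NOD/ShiLtJ it was at 12.3, 49.4 and 7.33 CPM in males and 0, 0.0378 and 0 CPM in females, and in PWK/PhJ it was at or near 0 in all 6 mice. Acot3, a peroxisomal acyl-CoA thioesterase, was at 1.8, 0.909 and 1.22 CPM in DBA/2J males and 92.2, 119.9 and 72.8 CPM in females, and did not pass in A/J, C57BL/6J or PWK/PhJ. In C57BL/6J both sexes were high, at 105.7, 128 and 98.4 CPM in males and 140.0, 129 and 126 CPM in females.

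In 339 genes the threshold was passed in opposite directions in different strains, and in 502 without WSB/EiJ female HFD 2. The clearest of the 6 taken for description was Mup18, higher in females of 129S1/SvImJ (-1.78 ± 0.50 (SE)) and A/J (-3.49 ± 0.58 (SE)) and higher in males of CAST/EiJ, DBA/2J, NOD/ShiLtJ, PWK/PhJ and WSB/EiJ (2.29 to 4.99). In A/J the males were at 0.764, 0.602 and 0.975 CPM and the females at 14.7, 7.94 and 3.5 CPM. In PWK/PhJ the males were at 478, 679 and 471 CPM and the females at 17.4, 34.2 and 35.9 CPM. The groups were apart in all 7 strains that passed, but 89.6% of the gene's windows occur in other Mup genes. Nr4a1, an immediate early nuclear receptor, was at 1.93, 3.44 and 2.13 CPM in C57BL/6J males and 62.3, 74.4 and 169 CPM in females, while in CAST/EiJ males were at 58.2, 46.5 and 5.57 CPM and females at 9.06, 4.41 and 1.65 CPM and overlapped. The CAST/EiJ call of Nr4a1 was lost with limma (adjusted p = 0.0655), with the strain fitted alone (0.0826), and without female HFD 2 (0.141), female HFD 3 (0.184), male HFD 1 (0.150) or male HFD 2 (0.103) of CAST/EiJ. Ciart, a repressor of the circadian clock, was higher in males of C57BL/6J (3.01 ± 0.93 (SE)) and in females of CAST/EiJ (-3.84 ± 1.02 (SE)), without overlap in either. Its C57BL/6J call was lost in 16 of 48 fits that left out a library. Among these were the fits without any 1 of the 6 libraries of that strain, with adjusted p from 0.0507 (male HFD 2) to 0.187 (female HFD 1), and was 0.0527 with the low-count filter. Its CAST/EiJ call was lost without CAST/EiJ male HFD 1 (adjusted p = 0.0583).

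The other 3 each had a call in which the groups overlapped. Cfd, the adipsin gene of the alternative complement pathway, was at 16.8, 33.3 and 17.4 CPM in C57BL/6J males and 0.356, 0.363 and 0.285 CPM in females, without overlap. Its female-higher call in NOD/ShiLtJ came from females at 0.113, 0.34 and 10.8 CPM, and without NOD/ShiLtJ female HFD 3 it was -0.59 with an adjusted p of 0.80. Of the 9 white adipose tissue markers listed, 4 were found, of which Cfd is 1. Lipe and Car3 were higher in males on average. The summed level of the 4 ran from 14.6 to 3831 CPM in males (median 1477) and from 11.1 to 1863 CPM in females (median 639.9). This sum is not split by marker here, and the amount of adipose tissue in the samples was not measured. The part of adipose tissue in the values of Cfd was not tested. Gm48199 was called female-higher in WSB/EiJ from females at 8.3, 168 and 1.54 CPM, of which the middle one is the library that stands apart, and without it the log2 fold change was 0.0053. BC049987 was called female-higher in CAST/EiJ from females at 2.21, 0.473 and 0.174 CPM and males at 0.0549, 0.192 and 0.0442 CPM. Without CAST/EiJ female HFD 1 it was -1.74 with an adjusted p of 0.340, and the call was also lost without CAST/EiJ male HFD 1 (0.0988) or male HFD 3 (0.0836) and with the strain fitted alone (0.0974).

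The list of 34 male-biased liver genes had 33 members higher in males on average and 0 higher in females, with a median log2 fold change of 2.90. Over all autosomal genes 17.5% were higher in males and 20.8% in females, with a median of -0.0059. Its member that did not pass was Hsd11b1, which regenerates active glucocorticoid, at -0.13. Without WSB/EiJ female HFD 2 it passed as female-higher, at -0.14 with an adjusted p of 0.0327. Of 43 female-biased genes, 42 were higher in females and 0 in males, with a median of -4.14, and Sult2a7 did not pass. The number of the 34 that passed as male-higher was lowest in CAST/EiJ and PWK/PhJ, at 24 each, and highest in DBA/2J and WSB/EiJ, at 32 each. The number of the 43 that passed as female-higher was lowest in C57BL/6J, at 25, and highest in DBA/2J, at 40. By strain, 2.66% to 20.5% of all autosomal genes passed in either direction. These lists were drawn up from known sex-biased genes, so their direction was given by the choice.

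Most enzyme families held members in both directions. Of 84 Cyp genes, 27 were higher in males and 37 in females, of 16 Ugt genes 7 and 5, and of 23 Gst genes 5 and 5. The shares past the threshold were 76.2%, 75.0% and 43.5%, against 38.3% of all autosomal genes, and without WSB/EiJ female HFD 2 the Cyp counts were 28 and 36 and the Gst counts 5 and 7. Of 17 Sult genes 3 were higher in males and 11 in females (82.4%); the median of -5.21 became -1.39 with genes at 0 counts set to the floor. Of 38 ABC transporters 6 were higher in males, among them Abcg2 at 1.74 ± 0.064 (SE), and 15 were higher in females, among them the peroxisomal fatty acid transporter Abcd2 at -3.32 ± 0.18 (SE). The ABC transporter counts were 7 and 14 without WSB/EiJ female HFD 2. Slc22a28, of the same family as Slc22a26, went the other way, at 3.32 ± 0.17 (SE).

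Of 23 genes of steroid metabolism, 13 were higher in males and 4 in females, with a median of 0.40, or 0.19 with values at 0 counts set to the floor. The share past the threshold was 73.9%, against 38.3% of all autosomal genes, and without WSB/EiJ female HFD 2 the female-higher count was 6. Srd5a1, the 5-alpha-reductase that acts on testosterone, averaged 1.45, the glucuronosyltransferases Ugt2b1 and Ugt2b38 1.20 and 2.57, and Akr1d1, the 5-beta-reductase, -0.88. Of 23 genes of bile acid synthesis and transport 9 were higher in males and 7 in females (69.6%), or 10 and 7 without that library. Cyp8b1, the sterol 12-alpha-hydroxylase, averaged 0.59 and Cyp27a1, the sterol 27-hydroxylase, 0.53, both higher in males. Cyp7a1, the rate-limiting enzyme of the classical route, had -0.34 and did not pass. Among transporters Slco1a4 averaged -2.39 and the export pump Abcc4 -1.09, both higher in females, in contrast to Slco1a1.

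Of 22 lipogenesis genes 10 were higher in females and 3 in males, with a median of -0.31 and 59.1% past the threshold, against 38.3% of all autosomal genes. The counts were 11 and 4 without WSB/EiJ female HFD 2. Among the female-higher ones, Pnpla3, a lipase-like protein of lipid droplets, averaged -0.86, Me1, which supplies NADPH, -0.54, and Fasn, the fatty acid synthase, -0.35. Of 21 autosomal genes of cholesterol synthesis 6 were higher in males and 0 in females, with a median of 0.23. The 6 were Msmo1 (0.85), Idi1 (0.75), Cyp51 (0.57), Sqle (0.54), Fdps (0.53) and Dhcr7 (0.39). The share of that list past the threshold was 28.6%, below the 38.3% of all autosomal genes. Of 31 genes of fatty acid oxidation and PPARA targets, 8 were higher in males and 10 in females, among them Cyp4a32 at 1.16 ± 0.083 (SE) and Cd36, the fatty acid translocase, at -1.53. The share past the threshold was 58.1%, and without WSB/EiJ female HFD 2 the counts were 12 and 12. Of 17 lipid droplet genes 5 were higher in males, led by Fitm1 at 1.63 ± 0.20 (SE), and 0 in females, a share of 29.4%, below that of all autosomal genes.

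Scd1, the stearoyl-CoA desaturase, averaged -1.75 ± 0.33 (SE) but varied by strain and mouse. In DBA/2J males were at 444, 54.1 and 51.6 CPM and females at 1001, 5439.7 and 764 CPM. In C57BL/6J males were at 9554, 5052 and 4643 CPM and females at 1611, 2107 and 638 CPM. Females were above males without overlap in 129S1/SvImJ, CAST/EiJ, DBA/2J, PWK/PhJ and WSB/EiJ, and males were above females in C57BL/6J, where the difference of 2.13 did not pass (adjusted p = 0.206). With strains as units the average for Scd1 did not pass (adjusted p = 0.155).

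Of 22 genes of glucose and amino acid metabolism 8 were higher in females, led by Ppp1r3g, a glycogen-targeting subunit, at -2.46 ± 0.39 (SE), and 1, Tdo2, which degrades tryptophan, was higher in males at 0.44 ± 0.074 (SE). The share past the threshold was 40.9%, against 38.3% of all autosomal genes. Without WSB/EiJ female HFD 2, 9 were higher in females and 2 in males, and Ppp1r3g was at -1.66 (adjusted p = 8.73e-07). Of 19 circadian genes 3 were higher in males and 1 in females, with 15 not past the threshold, a share of 21.1% past it. Of 18 extracellular matrix genes 8 were higher in females, among them Fbn1 (-0.29) and Fn1 (-0.28), and 1, Col4a2, was higher in males at 0.27 ± 0.063 (SE) (adjusted p = 0.192 with strains as units). Without WSB/EiJ female HFD 2 the circadian counts were 2 and 1, and 7 matrix genes were higher in females.

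Complement and acute phase genes moved in both directions, with 82.8% past the threshold, against 38.3% of all autosomal genes. Of 29 genes, 8 were higher in males: C6 (3.53), C4a (2.27), C9 (1.81), C8b (1.61), C8a (1.29), C1ra (0.24), C1s1 (0.21) and C8g (0.18). The 16 higher in females (14 without WSB/EiJ female HFD 2) were led by Lcn2, an iron-scavenging lipocalin (-1.95 ± 0.29 (SE)), Orm2, an acid glycoprotein (-1.90), Saa2, serum amyloid A (-1.32), and Apcs, serum amyloid P (-1.19).

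Most genes of immune cells on the lists were higher in females. Of 19 genes of Kupffer cells and macrophages, 17 were higher in females and 0 in males, with a median of -0.72, and 89.5% passed against 38.3% of all autosomal genes. Marco, a scavenger receptor, averaged -1.59 ± 0.23 (SE), Timd4 -0.82, Cd5l -0.80 and the Kupffer cell lectin Clec4f -0.64. Their summed level was 290 to 882 CPM in males (median 489) and 370 to 1206 CPM in females (median 750), so the ranges over strains overlapped. In bulk RNA, fewer cells of a type and less RNA per cell cannot be told apart. Of 24 interferon and antigen presentation genes, 15 were higher in females (16 without WSB/EiJ female HFD 2), led by Oas2, an antiviral synthetase, at -1.03 ± 0.11 (SE), and 0 in males.

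Markers of granulocytes and of B and plasma cells were mostly higher in females, and those of red cells were not. The share over all autosomal genes was 38.3% in either direction and 20.8% higher in females. Of 10 granulocyte markers 9 were higher in females (8 without WSB/EiJ female HFD 2), with a median of -1.74 and summed levels of 3.03 to 272 CPM in males and 6.38 to 416 CPM in females. Of 12 markers of B and plasma cells 10 were higher in females, with summed levels of 4.77 to 74.0 CPM in males and 5.03 to 327 CPM in females. Of the 6 T and natural killer cell markers found, 5 were higher in females and Cd4 was higher in males at 1.10, with summed levels of 1.08 to 15.3 CPM in males (median 5.61) and 0.648 to 9.71 CPM in females (median 5.45). Of 5 red cell markers 1 was higher in females and 4 did not pass, with a median of 0.049, although 4 of the 5 passed as male-higher in 129S1/SvImJ. By strain, the female-higher Kupffer cell and macrophage genes numbered 0 in A/J and 3 to 5 in C57BL/6J, CAST/EiJ, DBA/2J, NOD/ShiLtJ and WSB/EiJ, against 10 in 129S1/SvImJ and 13 in PWK/PhJ. The granulocyte markers numbered 10 in PWK/PhJ, 5 in A/J and 0 to 3 in the other 6 strains, and the B and plasma cell markers 10 in PWK/PhJ, 6 in NOD/ShiLtJ and 0 to 2 in the other 6. The share of all autosomal genes past the threshold in either direction also differed between strains, from 2.66% in A/J to 12.4% in PWK/PhJ and 20.5% in WSB/EiJ. Of 9 endothelial markers 7 were higher in females (6 without WSB/EiJ female HFD 2), with a median of -0.18, and of 9 stellate cell markers 3 (4 without that library). Of 12 hepatocyte markers 4 were higher in females and 1 in males (3 and 2 without it). The shares past the threshold were 33.3% of the stellate cell and 41.7% of the hepatocyte markers, near that of all autosomal genes. The part of cell composition in the differences of the other gene groups was not tested.

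On CD, in the matched 48 libraries of the same 8 strains, 5347 autosomal genes differed between the sexes on average (38.5%), 2687 higher in males (19.3%) and 2660 higher in females (19.1%). The CD calls, on average and by strain, came from the fit over the HFD and CD libraries together. The HFD calls came from the fit over the 48 HFD libraries. The 2 sets of calls therefore rest on unlike estimates of the spread, although the diets have no library in common. Both diets called 3392 genes, which are 63.7% of the HFD genes and 63.4% of the CD genes, and 3378 of them had the same direction. The CD count was 5496 when 129S1/SvImJ female CD 1 was left out, of which 3505 were shared, or 65.8% of the HFD genes and 63.8% of the CD genes. Of the 415 genes with 1 log2 unit or more on HFD, 410 had the same sign on CD. Within 129S1/SvImJ both diets called 236 genes, 19.1% of its HFD genes and 37.7% of its CD genes, and without 129S1/SvImJ female CD 1 they called 507, or 41.0% and 35.6%. Within WSB/EiJ the number was 879, and 603 without WSB/EiJ female HFD 2, or 28.2% of the HFD genes and 43.9% of the CD genes. In the other 6 strains the genes called on both were 29.0% to 39.5% of the HFD genes and 11.7% (C57BL/6J) to 54.8% (CAST/EiJ) of the CD genes.

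The sex difference on HFD minus that on CD passed the threshold for 238 autosomal genes (1.71%), of which 191 were lower on HFD, meaning shifted toward females, and 47 were higher. Without 129S1/SvImJ female CD 1 the count was 206, with 193 of the 238 retained. It rose to 437 without WSB/EiJ female HFD 2 and to 377 without both, and also to 417 without 129S1/SvImJ female CD 3 and 427 without WSB/EiJ male CD 3. With DESeq2 it was 367, and with strains as units limma called 0, with 1099 genes at an unadjusted p under 0.05. Of the 238 genes, 173 also passed for the average sex difference on HFD. The 191 shifted toward females were sorted by the sign of the 2 averages alone, with no threshold on either diet. By sign, 87 were positive on CD and negative on HFD, 78 were negative on both, and 26 were positive on both. Some of these averages were near 0, such as Cd5l at -0.010 on CD.

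**Figure D5:**
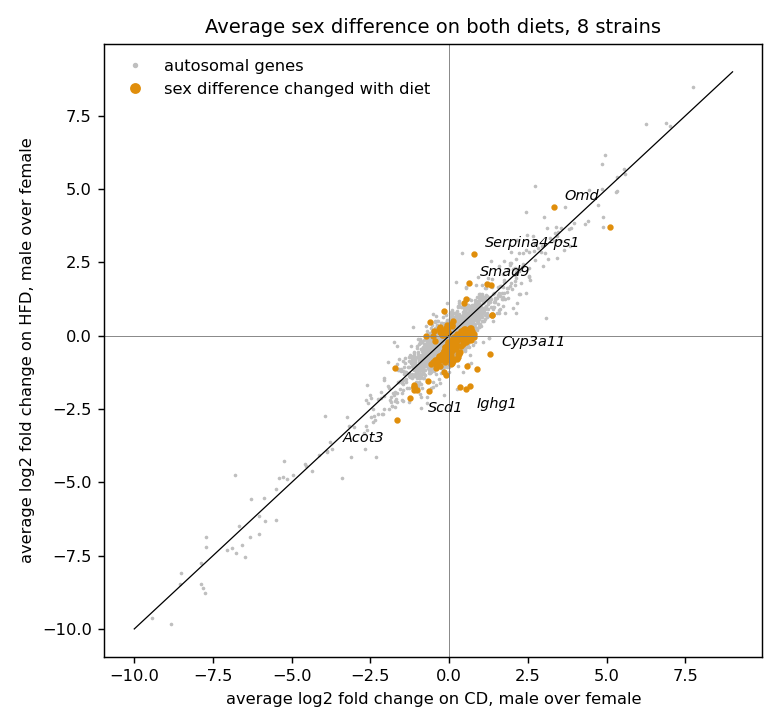
Each point is an autosomal gene, with the average log2 fold change of males over females on CD on the horizontal axis and on HFD on the vertical axis, and the 238 genes whose difference changed with diet are orange. Most genes lie along the diagonal, and labelled genes such as Cyp3a11 and Scd1 lie below it, with 191 of the 238 shifted toward females on HFD.

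Cyp3a11 (chr5:145854426-145879964), the main drug-metabolising Cyp3a enzyme, turned from male-higher on CD to female-higher on HFD. Its average was 1.30 on CD and -0.61 ± 0.14 (SE) on HFD, and the change was -1.91 ± 0.19 (SE), adjusted p = 8.8e-11. In DBA/2J HFD males were at 444, 304 and 283 CPM and females at 1045, 1058 and 1656 CPM. The CD means of that strain were 2828 ± 124 CPM in males and 869 ± 142 CPM in females (SD, n = 3), so the HFD males were below every HFD female while the CD mean of males was above that of females. In CAST/EiJ HFD males were at 204, 241 and 342 CPM and females at 65.7, 27.2 and 71.9 CPM, against CD means of 3596 ± 1003 and 85.2 ± 27.5 CPM. On HFD the gene was male-higher in CAST/EiJ (2.26 ± 0.42 (SE)) and PWK/PhJ (1.53 ± 0.41 (SE)) and was female-higher in 129S1/SvImJ (-1.33), DBA/2J (-1.89) and WSB/EiJ (-3.24).

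Scd1 averaged 0.36 on CD, and its change on HFD was -2.11 ± 0.40 (SE), adjusted p = 0.00134. In DBA/2J the CD means were 1692 ± 946 CPM in males and 838 ± 534 CPM in females (SD, n = 3). Trim24 moved from -1.11 on CD by -0.57 ± 0.13 (SE), adjusted p = 0.00607, and Acot3 from -1.67 by -1.21 ± 0.29 (SE), adjusted p = 0.0159. With all libraries these were the only members of the 26-gene panel to pass, and both were more female-biased on HFD. Without 129S1/SvImJ female CD 1, Cyp2d9 also passed, at -0.90 (adjusted p = 0.00739) against -0.26 (0.783) with it. In that fit 3 of the 34 male-biased genes (Cspg5, C8a and Cyp2d9) were lower on this measure, against 0 with all libraries. Of the 43 female-biased genes 4 were lower with all libraries, Acot3, Prlr and Trim24 among them, and 3 without that library. Over all autosomal genes 1.37% were lower with all libraries and 1.23% without it. Prlr moved by -0.65 ± 0.18 (SE), adjusted p = 0.043, or 0.057 without 129S1/SvImJ female CD 1.

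The immunoglobulin constant genes Ighg1 and Ighg2b had the largest shifts toward females, -2.37 ± 0.60 (SE) and -2.34 ± 0.51 (SE). The widest gap on HFD was in PWK/PhJ, where females were at 31.9, 82.6 and 20.3 CPM of Ighg2b and males at 0.584, 1.07 and 0.508 CPM. For Ighg1 the PWK/PhJ females were at 71.4, 79 and 45.5 CPM and the males at 0.403, 0.863 and 0.326 CPM. Neither call held in every fit that left out a library: Ighg1 had an adjusted p of 0.168 without DBA/2J male CD 3 and 0.062 without WSB/EiJ male CD 1, and Ighg2b 0.237 without DBA/2J male CD 1 and 0.072 without WSB/EiJ male CD 1. Of the 12 B and plasma cell markers 5 were lower on this measure (1.37% of all autosomal genes), of the 19 Kupffer and macrophage genes 5 (Timd4, Cd5l, Adgre1, Csf1r and Clec4f, by -0.47 to -0.79), and of the 24 interferon and antigen presentation genes 4, or 9 without WSB/EiJ female HFD 2. The first 2 counts were the same without that library and without 129S1/SvImJ female CD 1. Of the 29 complement and acute phase genes 7 were lower, or 9 when the one or the other of these libraries was left out, among them Orm1, which went from 0.56 on CD to -1.05 on HFD.

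Among the 47 genes shifted toward males, Serpina4-ps1, a serpin pseudogene, changed by 1.99 ± 0.50 (SE), adjusted p = 0.0205, or 0.059 without A/J male HFD 3. In DBA/2J its HFD males were at 322, 178 and 101 CPM and females at 1.03, 0.844 and 2.42 CPM. Smad9, a mediator of bone morphogenetic protein signals, changed by 1.18 ± 0.30 (SE), adjusted p = 0.0226. In DBA/2J its HFD males were at 9.51, 11.5 and 6.75 CPM and females at 0.482, 0.364 and 0.44 CPM, against CD means of 14.7 ± 3.82 and 12.3 ± 7.46 CPM (SD, n = 3). The HFD females were below every HFD male. Omd, which encodes osteomodulin and was male-higher in all 8 strains on HFD, changed by 1.06 ± 0.28 (SE), adjusted p = 0.0285, and by 0.69 with an adjusted p of 0.077 without 129S1/SvImJ female CD 1.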

How the data were processed

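Liver RNA was sequenced with 1 library per mouse (SMARTER library protocol, per the labels). The authors deposited whole-number counts per gene, and the tools named are FastQC, STAR 2.73a and edgeR 3.24.3, per the submitters' processing notes. The genome build, annotation, strand setting and filter on low counts are not given in the sources used here. The values were taken as raw counts, since they are whole numbers whose totals differ between libraries, although the table's name speaks of TMM. The 3 special lines of unassigned reads were left out of library sizes and tests; in the HFD libraries, reads that were not uniquely aligned came to 13.6% to 29.8%, ambiguous reads to 4.57% to 7.00% and reads in no feature to 3.24% to 8.64%. Gene symbols and positions (GRCm38) came from GENCODE for 14321 of 14330 identifiers.

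The counts were fitted with edgeR 4.0.16 (R 4.3.3; TMM scaling, quasi-likelihood F test) over 48 HFD libraries as 16 strain-by-sex means (residual degrees of freedom, 32). The contrasts were the mean male minus female difference over 8 strains, that of each strain, and equality of the 8 (7 degrees of freedom). HFD minus CD, and the sex differences on CD on average and by strain, used 96 libraries, 32 groups and 64 residual degrees of freedom. P-values were adjusted by Benjamini-Hochberg over all 14330 genes at a threshold of 0.05, and autosomal genes are reported. CPM use TMM library sizes over all libraries of the series. P-values measure the spread between mice of a group. Depth of 35534924 to 73577221 counts per HFD library limits genes at a few counts, and floors of 3 counts cover counting error only.

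Genes were named by rule: a panel of 26; the 10 largest average differences in each direction; the 8 largest strain F values; the 2 largest per strain and direction; the 4 largest diet changes per direction; and 6 genes called in opposite directions, all but the panel with a mean of at least 1 CPM. Values of some genes, 1 of them in the panel, are not reported here. Members and lists were chosen with earlier results of these data known. Alternatives were limma 3.58.1, DESeq2 1.42.0, RLE scaling, a filter at the 25th percentile of mean log2 CPM, all libraries of the series, strains as units, strains fitted alone, and each strain or library left out; for HFD minus CD, fits without a library kept the dispersion trend of all 96. On simulated counts for 14330 genes, the average test called 92%, 99% and 100% of genes changed by 0.5, 1 and 2 log2 units, the single-strain test 32%, 82% and 98%, the strain F test 1 of 50, 42% and 84%, and the diet test 78%, 97% and 100%. Unchanged genes made up 5.1%, 4.21%, 7.61% and 7.66% of the calls. In the simulation the changed genes had a mean of at least 1 CPM, all strains had the same baseline, and no library stood apart. Far fewer genes were changed than were called in the data, so these rates need not hold for the data.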

Additional observations from a re-analysis of the deposited data

Results flagged for a closer look

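For 14 named genes the sex difference on HFD differed between the 8 strains by the edgeR test of 7 strain terms. F was 56 for Capn8, 54.4 for Cav1, 48 for Sult3a2, 47.1 for Cyp2f2, 44.5 for Sult3a1, 43.1 for Mup2, 42.9 for Kcnk1, 42 for C6 and 30.5 for Mup18, with adjusted p of at most 2.18e-10. For genes called in opposite directions F was 8.75 for Cfd (adjusted p = 0.000148), 6.51 for Nr4a1 (0.00136), 6.27 for BC049987 (0.00171), 6.06 for Gm48199 (0.00219) and 5.46 for Ciart (0.00411).

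For 8 named genes the average sex difference differed between the diets. The difference on HFD minus that on CD was -2.37 log2 units for Ighg1, -2.34 for Ighg2b, -2.11 for Scd1 and -1.91 for Cyp3a11. It was 1.99 for Serpina4-ps1, 1.18 for Smad9, 1.08 for Gm11353 and 1.06 for Omd. Gm11353 had 5 groups at or under 3 counts in every library, so that its fitted value depends on the prior count, and its adjusted p was 0.0383, and it lost the threshold in 19 of 96 fits that left out a library, with an adjusted p of up to 0.148 (without 129S1/SvImJ male HFD 3) and 0.062 without 129S1/SvImJ female CD 1.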

How the results depend on the processing

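No paired analysis was possible because the labels number animals and give no replicate numbers shared by the sexes. The average count of 5325 lay between 3856 and 5534 under RLE scaling, the low-count filter, all libraries of the series, limma and DESeq2, was 1987 with strains as units, and was 5028 to 5757 with 1 library left out. The low-count filter, which tests fewer genes, gave 175 in A/J, 499 in C57BL/6J, 714 in NOD/ShiLtJ, 1012 in PWK/PhJ and 1843 for strain differences. Strains fitted alone gave 825 in 129S1/SvImJ, 1418 in C57BL/6J, 848 in CAST/EiJ and 170 in WSB/EiJ; the cause was not tested. With 1 library left out, counts ran from 782 to 1587 in 129S1/SvImJ, 199 to 513 in A/J, 409 to 1088 in C57BL/6J, 977 to 2186 in CAST/EiJ, 1226 to 2777 in DBA/2J, 709 to 1635 in NOD/ShiLtJ, 1100 to 2057 in PWK/PhJ and 1557 to 3181 in WSB/EiJ, and from 2369 to 3507 for strain differences. In these fits a group left with 2 libraries takes its spread from all groups. The libraries whose absence lowered a strain's count by over 1.5 times were 129S1/SvImJ male 2 (813) and 3 (782); A/J male 2 (199), female 1 (213) and female 2 (213); C57BL/6J female 2 (409) and male 3 (446); CAST/EiJ female 2 (977), female 3 (1028) and male 1 (1131); DBA/2J male 2 (1226); NOD/ShiLtJ male 1 (825), male 2 (709), female 1 (830) and female 3 (785); PWK/PhJ female 1 (1100) and male 2 (1125); and WSB/EiJ male 1 (1557). DESeq2 called 3975 genes for strain differences. The HFD minus CD count of 238 ran from 164 to 437 with 1 library left out, was 367 with DESeq2, 377 without 129S1/SvImJ female CD 1 and WSB/EiJ female HFD 2 (chosen after seeing the data), and 0 with strains as units (limma; 1099 at an unadjusted p under 0.05). Of the values of named genes under the alternatives, 8012 kept direction and side of the threshold, 97 lost the threshold, 2 gained it and 3 reversed. Most of these fits left out 1 library. For a value of a single strain, most of the libraries left out belonged to other strains and could change it little. Many of the genes were also named for large differences, so the tally is not a measure of robustness. Igf1 without the strain WSB/EiJ was -0.021. With 1 library left out, Gm48199 in WSB/EiJ ran from -4.17 to 0.0053 (without female HFD 2), and the average of Cish from -0.034 (without 129S1/SvImJ male HFD 3) to 0.37. Genes at a few counts are limited by depth.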

Other observations

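The NZO/HlLtJ libraries on HFD entered no comparison, because 1 male library was present. Cyp3a41a was at 26.3 CPM in that male and at 737, 878 and 773 CPM in the 3 females. Cyp2b9 was at 172 CPM in the male and at 739, 832 and 770.0 CPM in the females. Sult3a1 was at 3.10 CPM in the male and at 108, 99.1 and 136 CPM in the females. Slco1a1 was at 206 CPM in the male and at 4.68, 4.09 and 6.61 CPM in the females, and A1bg at 2.11 CPM in the male and at 1587, 1124 and 871 CPM in the females. For Cyp3a41a the male exceeded the highest of the 24 males of the other strains, which was at 0.685 CPM.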
